A study of Mus musculus with 6 samples.

Results

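The genes described here are the glucose transporter Slc2a1 and 9 enzymes of the route to lactate, which are Hk2, Gpi1, Pfkl, Aldoa, Tpi1, Pgk1, Pgam1, Pkm (PKM2 on the array) and Ldha. They were chosen by name: every probe of the table without normalization counted whose target, in any case or as a synonym, was SLC2A1, HK2, GPI1, PFKL, ALDOA, TPI1, PGK1, PGAM1, PKM2 or LDHA. Of the 10 genes, 9 had a probe, with 11 probes among the 46643 in the table, and 8 genes were tested among 6539. Glycolysis turns glucose into pyruvate in the cytosol, and lactate dehydrogenase then reduces pyruvate to lactate, which restores the NAD+ that the pathway needs. The transporter, hexokinase, phosphofructokinase and pyruvate kinase are its best known control points, and hypoxia-inducible factors and Myc are textbook activators of most of its genes. Naive mouse embryonic stem cells are known to use glycolysis together with mitochondrial respiration, and the balance shifts toward glycolysis as they move to the primed state.

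The study profiled CCE cells, a mouse embryonic stem cell line grown without feeders in serum and leukemia inhibitory factor. Plasmids (pSuper.puro) carried one of 3 short hairpin RNAs: Prmt6 shRNA1, Prmt6 shRNA2, or the GFP shRNA that served as control. Prmt6 is an arginine methyltransferase that places asymmetric dimethyl marks, among them the one on arginine 2 of histone H3. All 3 groups went through lipid transfection and, from 18 h later, 4 days of puromycin at 1.5 µg per ml, so each is a selected pool after transient knockdown, not a clone or a deletion. Each group had 2 Illumina bead arrays, 6 in all, and nothing in the labels says whether the replicates were separate cultures, so p-values measure the spread between these samples, which may be technical. With so few arrays, their number sets how precise any value can be.

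Arrays differed in brightness and quality. The mean intensity per probe ranged from 201.5 to 345.3, and the number of detected probes (detection p under 0.01) was lowest for Prmt6 shRNA2 replicate 2, at 5782, and highest for Prmt6 shRNA1 replicate 2, at 10928. Probe IDs fell into 2 series, and on Prmt6 shRNA2 replicate 2 the second series was dim. The replicates of that group correlated at r = 0.714 over second-series probes and r = 0.971 over first-series probes, which are correlations across probes of 2 libraries. On that array 403 tested genes that all 5 others detected were missing, 155 of them from the first series, against 0 to 149 such genes on the other arrays. None of the 8 glycolytic genes tested was among them: all 8 were read by first-series probes and detected on all 6 arrays. Prmt6 itself checks the labels, and each of the 4 knockdown arrays read it below either control. The brighter of 2 kept Prmt6 probes read 48.3 and 147.6 intensity units with Prmt6 shRNA1, 97.8 and -21.6 on the Prmt6 shRNA2 arrays, and 389.8 and 266.1 with GFP shRNA. This probe is of the second series, dim on Prmt6 shRNA2 replicate 2. It was not well above background with Prmt6 shRNA2. There it was at least 1.40-fold lower than with GFP shRNA, setting the control mean against the lowest detected signal of each Prmt6 shRNA2 array. That bound has no test. The fitted difference with Prmt6 shRNA2 had a limma adjusted p of 0.0904. The fitted log2 difference for both hairpins was -1.84 ± 0.37 (SE), with a limma adjusted p of 0.082, so the knockdown missed the threshold.

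Stem cell identity was checked by its markers. Pou5f1, Sox2, Nanog, Zfp42, Klf4, Klf2, Esrrb and Utf1 were detected on all 6 arrays and Tdh on 5, while Fgf4 and Tdgf1 were read on none. The summed intensity of the stem cell markers, 11 of 12 with a probe, was 12530 and 23973 with Prmt6 shRNA1, 19047 and 13272 on the Prmt6 shRNA2 arrays, and 34475 and 21698 with GFP shRNA, before any scaling between arrays. For trophectoderm markers, 10 of 10 with a probe, the sum was 13759.0 and 22056 with Prmt6 shRNA1, 6714 and 4671 on the Prmt6 shRNA2 arrays, and 3184 and 2325 with GFP shRNA. Eomes, Elf5 and Hand1 were detected on no array, and 5 of 7 tested rose over both hairpins (limma adjusted p under 0.05, where 1.50% of all genes rose and 0.168% fell), Krt8, Krt18, Krt7, Cldn4 and Gata3. Endoderm markers summed to 5076 and 9196, 10974 and 7744, and 4675 and 3971 in the same order of groups, with Foxa2, Sox7, Afp and Ttr undetected, and 2 of 5 tested rose, Gata4 and Col4a1. Fibroblast and feeder markers summed to 5066 and 8705, 6674 and 4175, and 5244 and 3072.0, with 8 of 11, Col1a1, Col1a2 and Col3a1 among them, undetected on every array, and 1 of 3 tested rose, Acta2. Of 9 stem cell markers tested 0 passed and 9 lay below 0, with a median of -0.65. Fewer cells of a type and less RNA per cell cannot be told apart in these bulk samples. The part of these markers in the glycolytic values below was not tested.

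No glycolytic gene passed the test in any comparison. Values are log2 signals after background correction and quantile normalization, and differences are in log2 units with limma standard errors. P-values are two-sided and adjusted over all 6539 genes by the method of Benjamini and Hochberg, with calls below 0.05. Averaged over both Prmt6 hairpins, 0 of 8 genes passed by limma, and 0 had an unadjusted p under 0.05, where 952 of all 6539 genes did. Among all genes 1.67% passed, so a count of 0 among 8 is near that background. For all 8 genes the 95% interval of this difference lay inside 2-fold in either direction, as it did for 72.9% of all genes. The widest bounds were a 1.69-fold fall for Ldha and a 1.57-fold rise for Pfkl.

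**Figure D1:**
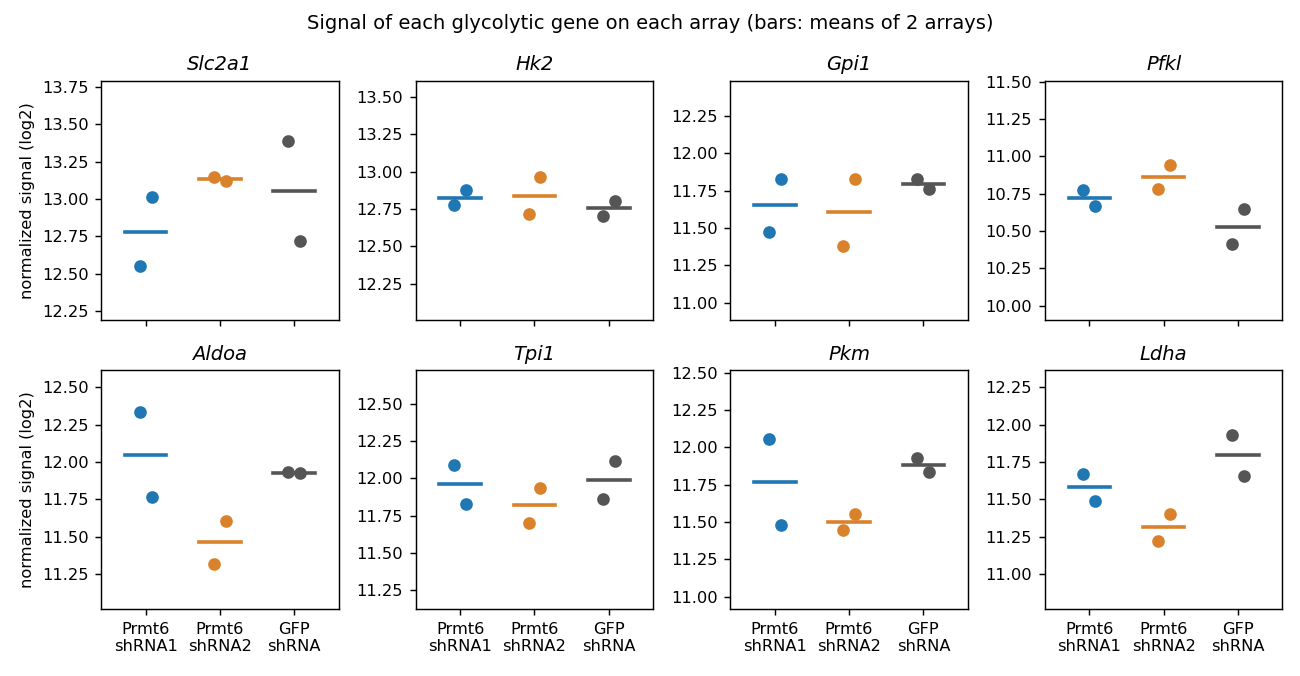
Normalized log2 signal (y axis) of the 8 tested glycolytic genes on each array, with Prmt6 shRNA1 in blue, Prmt6 shRNA2 in orange and GFP shRNA in grey. Points are arrays and bars are means of 2 arrays, and every panel spans 1.6 log2 units. Pfkl is the 1 gene of the 8 whose 4 knockdown points all clear both grey points.

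Hypoxia-inducible factors and Myc are known to bind sites built on ACGTG, and the sequences before the starts of these genes show which of these letters the genes carry. RefSeq windows (GRCm38.p6) of the 250 bases before an annotated start were searched for ACGTG and its reverse complement CACGT; the palindrome CACGTG holds both. Matches stood in 16.6% of 32851 windows of that length. Of the 10 glycolytic genes all had a window and 7 had a match in at least 1, and 8 of their 14 windows held one. Among these 8 are 2 Aldoa windows that overlap and hold the same CACGT. The 16.6% is a share of windows, and the share of all genes with a match was not counted. The windows below belong to the genes at the entry and the end of the pathway, which did not pass, and to P4ha2, a hypoxia-response gene outside glycolysis that rose. Capitals mark the matches, and each sequence runs 5′ to 3′ on the strand of its gene. They are chr4:119108495-119108744 on the plus strand for Slc2a1, chr6:82774455-82774704 on the minus strand for Hk2, chr7:46845554-46845803 on the plus strand for the first of 2 Ldha windows, and chr11:54100674-54100923 on the plus strand for P4ha2.
Slc2a1: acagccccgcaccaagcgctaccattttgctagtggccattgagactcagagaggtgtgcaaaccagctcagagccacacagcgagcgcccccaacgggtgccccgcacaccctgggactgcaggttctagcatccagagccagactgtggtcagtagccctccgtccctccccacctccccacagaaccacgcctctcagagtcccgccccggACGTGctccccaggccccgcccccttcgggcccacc
Hk2: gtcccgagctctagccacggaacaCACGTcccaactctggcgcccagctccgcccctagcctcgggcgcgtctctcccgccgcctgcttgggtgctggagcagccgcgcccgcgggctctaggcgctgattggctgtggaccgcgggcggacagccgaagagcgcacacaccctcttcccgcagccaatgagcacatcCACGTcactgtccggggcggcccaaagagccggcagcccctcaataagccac
Ldha: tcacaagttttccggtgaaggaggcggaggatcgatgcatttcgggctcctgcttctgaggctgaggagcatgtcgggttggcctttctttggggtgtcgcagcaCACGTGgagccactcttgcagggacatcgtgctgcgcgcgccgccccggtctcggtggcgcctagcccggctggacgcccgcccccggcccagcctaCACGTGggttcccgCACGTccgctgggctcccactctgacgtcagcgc
P4ha2: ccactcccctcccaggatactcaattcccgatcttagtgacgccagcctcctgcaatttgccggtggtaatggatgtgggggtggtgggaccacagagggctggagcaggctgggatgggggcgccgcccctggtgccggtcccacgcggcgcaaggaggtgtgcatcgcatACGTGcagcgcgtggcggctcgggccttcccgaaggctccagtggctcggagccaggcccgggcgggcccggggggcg
Slc2a1 and P4ha2 each held 1 match, Hk2 held 2, and the Ldha window held 5, from 2 copies of CACGTG and 1 further CACGT. The second Ldha window held none. A match in these letters is a description of the window, not of binding in these cells. Variants of these letters, such as GCGTG, were not searched or marked.

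Glucose entry was read by Slc2a1, which encodes GLUT1, the transporter that lets glucose cross the plasma membrane down its gradient. Its intensities were 4115.9 and 9860.1 with Prmt6 shRNA1, 10233.4 and 7196.8 on the Prmt6 shRNA2 arrays, and 12473.6 and 6454.6 with GFP shRNA. On the normalized scale these became 12.55 and 13.01, 13.15 and 13.12, and 13.39 and 12.72 log2 units in the same order. The GFP shRNA arrays enclosed both Prmt6 shRNA2 arrays and 1 of the Prmt6 shRNA1 arrays, and their own gap of 0.67 was the widest replicate gap of any of these genes in any group. The difference for both hairpins was -0.10 ± 0.25 (limma adjusted p = 0.904). It turned to 0.02 without Prmt6 shRNA1 replicate 1 and to 0.24 without GFP shRNA replicate 1, and it stood at -0.43 without GFP shRNA replicate 2.

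Hk2, hexokinase 2, traps glucose in the cell by phosphorylating it and can sit on the outer mitochondrial membrane. Its values were 12.78 and 12.88 log2 units with Prmt6 shRNA1, 12.71 and 12.97 on the Prmt6 shRNA2 arrays, and 12.71 and 12.80 with GFP shRNA. All 3 groups overlapped. Hk2 had the narrowest standard error of the 8 genes, and its difference was 0.08 ± 0.16 (limma adjusted p = 0.864), with a 95% interval from -0.31 to 0.46.

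Gpi1, the isomerase that makes fructose 6-phosphate from glucose 6-phosphate, read 11.48 and 11.83 with Prmt6 shRNA1, 11.38 and 11.83 on the Prmt6 shRNA2 arrays, and 11.83 and 11.76 with GFP shRNA. In each Prmt6 group 1 array matched the controls and the other lay below them. Its difference was -0.17 ± 0.20 (limma adjusted p = 0.761). A further Gpi1 probe, of the second series, was detected on only 1 array, Prmt6 shRNA1 replicate 2, and was not tested.

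Pfkl, the liver-type phosphofructokinase that catalyses the committed step, was the gene with the highest difference. It read 10.78 and 10.67 with Prmt6 shRNA1, 10.79 and 10.94 on the Prmt6 shRNA2 arrays, and 10.41 and 10.65 with GFP shRNA. All 4 Prmt6 shRNA arrays lay above both controls, the lowest of them by a small margin over GFP shRNA replicate 2. Such separation upward was seen for 15.8% of all genes tested, and none of the other 7 glycolytic genes was separated in either direction, where downward separation held for 8.79% of all genes. The difference of 0.26 ± 0.16 did not pass (limma adjusted p = 0.52), and 77.3% of all genes lay below it.

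Aldoa, the aldolase that splits fructose bisphosphate into triose phosphates, read 12.33 and 11.76 with Prmt6 shRNA1, 11.32 and 11.61 on the Prmt6 shRNA2 arrays, and 11.93 and 11.93 with GFP shRNA. The Prmt6 shRNA1 arrays lay on either side of the controls, while both Prmt6 shRNA2 arrays lay below them. Over both hairpins the difference was -0.17 ± 0.21 (limma adjusted p = 0.763).

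Tpi1, which interconverts the triose phosphates, read 12.09 and 11.83 with Prmt6 shRNA1, 11.70 and 11.94 on the Prmt6 shRNA2 arrays, and 11.86 and 12.12 with GFP shRNA. The groups overlapped, and the difference was -0.10 ± 0.18 (limma adjusted p = 0.844). A dim Tpi1 probe, detected on 1 Prmt6 shRNA1 array and 1 GFP shRNA array, gave -0.07 ± 0.23 when every kept probe was tested (limma adjusted p = 0.924).

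The next steps were thinly covered. Pgk1, phosphoglycerate kinase, makes the first ATP of the pathway, and its 1 probe was detected on no array, with intensities from -47.7 to -15.1. That probe therefore gave no value for Pgk1, an enzyme of a step that glycolysing cells need. Pgam1, phosphoglycerate mutase, had no probe by name or synonym.

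Pkm, pyruvate kinase, forms ATP and pyruvate at the end of the pathway, and its M1 and M2 forms come from alternative exons. The array calls its probe PKM2, and without the probe's sequence the 2 forms cannot be told apart. It read 12.06 and 11.48 with Prmt6 shRNA1, 11.44 and 11.55 on the Prmt6 shRNA2 arrays, and 11.93 and 11.84 with GFP shRNA. Prmt6 shRNA1 replicate 1 was the highest array and the other 3 Prmt6 shRNA arrays lay below both controls. The difference was -0.25 ± 0.20 (limma adjusted p = 0.638). A probe named PK3 was left out because Pk3 is a synonym of both Pkm and Prickle3.

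Ldha, the lactate dehydrogenase subunit that favours lactate formation, had the lowest difference of the 8 genes. Its intensities were 2178.7 and 3577.5 with Prmt6 shRNA1, 2840.2 and 2177.9 on the Prmt6 shRNA2 arrays, and 4563.6 and 2948.7 with GFP shRNA. After normalization these were 11.67 and 11.49, 11.22 and 11.41, and 11.93 and 11.66 log2 units. Of the 4 Prmt6 shRNA arrays only Prmt6 shRNA1 replicate 1 reached the lower control. The difference of -0.35 ± 0.17 did not pass (limma adjusted p = 0.427), with a 95% interval from -0.76 to 0.07, and 14.9% of all genes lay below it.

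Taking the genes side by side, 6 of 8 lay below 0 over both hairpins, with a median of -0.13. Over all genes tested 46.7% lay below 0 and the median was 0.02. None of the 8 differences passed, and their standard errors ran from 0.16 to 0.25. Leaving out 1 array turned the sign of Slc2a1 (Prmt6 shRNA1 replicate 1 or GFP shRNA replicate 1) and of Tpi1 (GFP shRNA replicate 2). The genes did not share one profile over the arrays. Each gene's own mean over 6 arrays was taken as its zero, and the mean over the 8 genes was then 0.07 and -0.03 log2 units with Prmt6 shRNA1, -0.19 and 0.02 on the Prmt6 shRNA2 arrays, and 0.10 and 0.03 with GFP shRNA. Prmt6 shRNA2 replicate 1 was the lowest array for 5 of the 8 genes. Between replicates the median absolute gap of the 8 genes was 0.31 within Prmt6 shRNA1, 0.21 within Prmt6 shRNA2 and 0.16 within GFP shRNA, against 0.28, 0.26 and 0.22 over all genes.

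**Figure D2:**
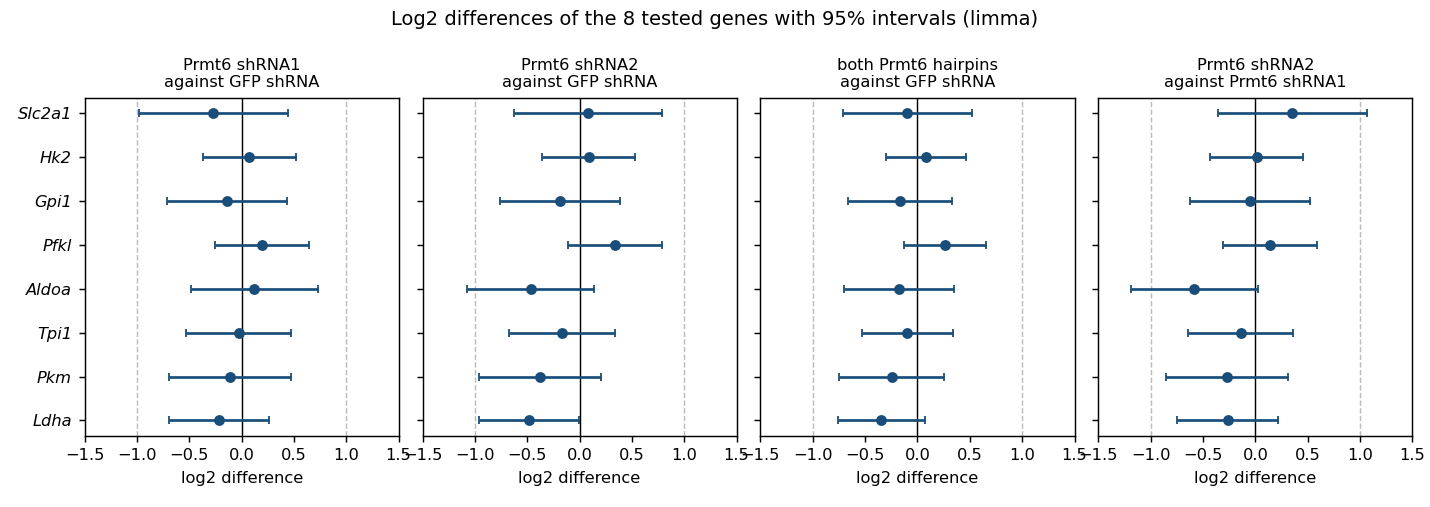
Log2 differences (x axis) of the 8 glycolytic genes in 4 comparisons, as points with 95% limma intervals, and dashed lines at 2-fold. Intervals cover 0 throughout, except for Ldha with Prmt6 shRNA2 against GFP shRNA, whose upper end lies just below 0.

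Each hairpin was then set against GFP shRNA on its own, which asks whether a change came with either. These comparisons share the GFP shRNA arrays. With Prmt6 shRNA1, 0 of 8 genes passed by limma and 0 had an unadjusted p under 0.05. Of all 6539 genes, 1.32% passed and 764 had an unadjusted limma p under 0.05. Differences ran from -0.27 for Slc2a1 to 0.19 for Pfkl, with a median of -0.07, against -0.02 over all genes. Scaling to medians in place of quantiles turned the median of the 8 genes to 0.12, with all genes at 0.14, and turned Gpi1, Tpi1 and Pkm above 0. Adjusted p-values ran from 0.826 to 0.987. Pfkl was the only gene whose Prmt6 shRNA1 arrays both lay above the controls, and none had both below, where all genes gave 23.0% and 19.4%. All 8 intervals lay within 2-fold, against 65.9% of all genes.

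With Prmt6 shRNA2 the values spread further. By limma 0 of 8 genes passed, against 1.04% of all genes. Among all 6539 genes 1121 had an unadjusted limma p under 0.05, and 1 of the 8 did. That gene was Ldha, at -0.48 ± 0.19 and 1.39-fold lower than in the controls (limma adjusted p = 0.291). Aldoa was at -0.47 ± 0.25 (limma adjusted p = 0.378) and Pkm at -0.38 ± 0.24 (limma adjusted p = 0.435). In these 3 genes both Prmt6 shRNA2 arrays lay below both GFP shRNA arrays. Such separation downward was found in 20.2% of all genes, and 1 gene, Pfkl at 0.34 ± 0.18, was separated upward, against 32.2% of all genes. The median was -0.18 over the 8 genes and 0.08 over all genes. With scaling to medians it was -0.38 against -0.16, and Slc2a1 and Hk2 turned below 0. Of the 8 intervals 7 lay within 2-fold, and that of Aldoa reached a 2.10-fold fall.

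Prmt6 shRNA2 was also compared with Prmt6 shRNA1 directly, which tests whether the hairpins differed. Again 0 of 8 genes passed by limma and 0 had an unadjusted p under 0.05. Of all 6539 genes, 0.398% passed and 779 had an unadjusted limma p under 0.05. Aldoa stood lowest, at -0.58 ± 0.25 (limma adjusted p = 0.429), with both Prmt6 shRNA2 arrays below both Prmt6 shRNA1 arrays. Aldoa read highest on Prmt6 shRNA1 replicate 1 after normalization, but not in intensity (3465.6, against 4374.5 on Prmt6 shRNA1 replicate 2). Without Prmt6 shRNA1 replicate 1 the Aldoa difference was -0.30. Ldha was separated downward too, at -0.27 ± 0.19, where 17.9% of all genes were. Slc2a1, at 0.35 ± 0.29, and Pfkl, at 0.14 ± 0.18, were separated upward, where 26.2% of all genes were, but scaling to medians turned both signs and that of Hk2. That scaling put the median of the 8 genes at -0.47 and of all genes at -0.33, against -0.09 and 0.06 with quantiles. The intervals of Aldoa and Slc2a1 went past 2-fold, at a 2.28-fold fall and a 2.09-fold rise, so these 2 intervals include a difference of 2-fold between the hairpins.

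**Figure D3:**
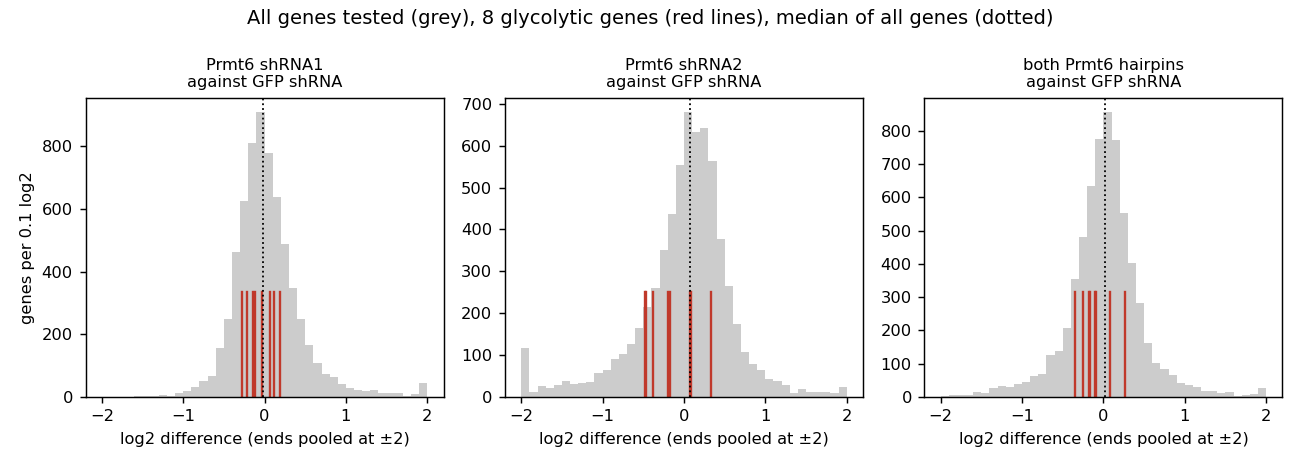
Histograms of log2 differences (x axis) of all 6539 genes tested, with genes per 0.1 log2 on the y axis, in 3 comparisons against GFP shRNA. Red lines are the 8 glycolytic genes and the dotted line is the median of all genes; the red lines run from -0.48 to 0.34.

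The rest of the pathway was read through lists of neighbouring genes. They held 149 genes in 10 lists, of which 63 were tested. Over both hairpins 2 rose and 0 fell, where 1.50% and 0.168% of all genes did. By limma 10 of the 63 had an unadjusted p under 0.05, where 952 of all 6539 genes did, a similar share. The other isozymes and steps of glycolysis had 8 of 23 members tested and 0 passed. Gapdh, which oxidises glyceraldehyde phosphate and is a common loading control, was at -0.07 ± 0.17 on its brightest probe (limma adjusted p = 0.89), and its 5 probes ranged from -0.30 to -0.01. Hk1, the constitutive hexokinase, was at 0.22 ± 0.18, and Pfkp and Pfkm, the other phosphofructokinases, at -0.04 ± 0.20 and 0.20 ± 0.19. Ldhb, the subunit that favours pyruvate formation, was at -0.07 ± 0.16. Pgam2, the muscle mutase, acts at the step of Pgam1, but its probe was detected on only 1 Prmt6 shRNA1 array, no Prmt6 shRNA2 array and 1 GFP shRNA array, too dim to read that step. Eno2, the neuronal enolase, was at 0.53 ± 0.20 (limma adjusted p = 0.314). For it 4 of 4 Prmt6 shRNA arrays lay above both controls, as for 15.8% of all genes. Its probe was detected on only 1 Prmt6 shRNA array and 1 GFP shRNA array, and the Eno1 probe on none. Slc2a3, which encodes the high-affinity transporter GLUT3, was at 0.20 ± 0.16, and Bsg, the chaperone of lactate transporters, at 0.46 ± 0.21 (limma adjusted p = 0.632 and 0.411).

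Regulators and branches of the pathway gave 0 calls in the same comparison. Pdk1, the kinase that shuts pyruvate dehydrogenase, was at -0.37 ± 0.15 and Pfkfb4, which sets the level of a phosphofructokinase activator, at 0.63 ± 0.19 (limma adjusted p = 0.342 and 0.216). With Prmt6 shRNA2 alone Pfkfb4 stood at 0.99 ± 0.22 and Txnip, of the same list, at 0.80 ± 0.20 (limma adjusted p = 0.125 and 0.138). Mpc2, a subunit of the mitochondrial pyruvate carrier, was at 0.76 ± 0.20, and Rpia, an isomerase of the pentose phosphate pathway, at 0.67 ± 0.19 (limma adjusted p = 0.167 and 0.188). Psat1, an enzyme of the serine branch, was at -0.62 ± 0.23 (limma adjusted p = 0.293). Fbp2, of the gluconeogenesis and glycogen list, was at 0.78, and at 1.40 with Prmt6 shRNA2 alone, and passed in neither. It was the highest of 5 tested there, of which 2 lay above 0 and 3 below in each of these comparisons. With detection required on all 6 arrays, Fbp2 and Rpia passed over both hairpins (limma adjusted p = 0.0215 and 0.0323). Of 17 citric acid cycle genes tested, 14 lay below 0, with a median of -0.27. Over all genes 46.7% lay below 0 and the median was 0.02. The probes of Idh1, Idh2, Mdh2, Fh1 and Sdhd that stood for these genes were detected on every array except Prmt6 shRNA2 replicate 2. For the other 12 the median was -0.14, with 9 below 0. Among these 12, Mdh1 (-0.44) and Sucla2 (-0.40) were detected on only 2 arrays and Ogdh (0.31) on only 3. With Prmt6 shRNA1 alone 9 of these 12 lay below 0 (median -0.20), where 52.1% of all genes did. With Prmt6 shRNA2 alone 6 did (median -0.01), where 42.1% of all genes did.

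Genes of the hypoxia response outside glycolysis included the 2 that rose. P4ha2, a collagen prolyl hydroxylase subunit, read 9.59 and 9.68 log2 units with Prmt6 shRNA1, 10.19 and 10.47 on the Prmt6 shRNA2 arrays, and 8.81 and 8.95 with GFP shRNA. It rose by 1.10 ± 0.16, or 2.15-fold (limma adjusted p = 0.0435). Bhlhe40, a transcriptional repressor linked to hypoxia and the circadian clock, read 9.31 and 9.72 with Prmt6 shRNA1, 9.21 and 9.14 on the Prmt6 shRNA2 arrays, and 8.12 and 7.86 with GFP shRNA. It rose by 1.35 ± 0.19, or 2.55-fold (limma adjusted p = 0.0396). For both genes all 4 Prmt6 shRNA arrays lay above both controls, as for 15.8% of all genes. Leaving out any single array except Prmt6 shRNA2 replicate 1 left 0 calls in the lists. Each of the 2 passed in 7 of 19 alternatives, with log2 differences of 0.93 to 1.17 for P4ha2 and 0.99 to 1.47 for Bhlhe40. The other 9 tested of this list did not pass. Car12, a membrane carbonic anhydrase, had a fitted difference of 1.26 ± 0.23 (limma adjusted p = 0.0676), and 1.77 ± 0.27 with Prmt6 shRNA2 (limma adjusted p = 0.0544). It was detected on 1 Prmt6 shRNA1 array, both Prmt6 shRNA2 arrays and neither GFP shRNA array, and was at least 1.42-fold higher with Prmt6 shRNA2 than with GFP shRNA. Also short of the threshold were Vegfa, the vascular growth factor, at -0.53 ± 0.38, and Ddit4, an inhibitor of mTOR signalling, at 0.40 ± 0.24. The list's median was 0.27. Each hairpin alone gave 1 upward call among the 63, where 1.27% of all genes rose with Prmt6 shRNA1 and 0.933% with Prmt6 shRNA2: Bhlhe40 with Prmt6 shRNA1 at 1.52 ± 0.22 (limma adjusted p = 0.0406) and P4ha2 with Prmt6 shRNA2 at 1.45 ± 0.19 (limma adjusted p = 0.0438). Neither differed detectably between the hairpins, at -0.34 ± 0.22 for Bhlhe40 and 0.70 ± 0.19 for P4ha2 as Prmt6 shRNA2 minus Prmt6 shRNA1 (limma adjusted p = 0.522 and 0.283). Hif1a and Epas1, which encode alpha subunits of hypoxia-inducible factors, were detected on no array, and neither were probes for Bnip3, Car9 and Adm. Myc and Mycn were not detected on any array either. These probes therefore gave no value for their genes. Hif3a and Arnt, further subunits, were detected on 5 arrays and did not pass.

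**Figure D4:**
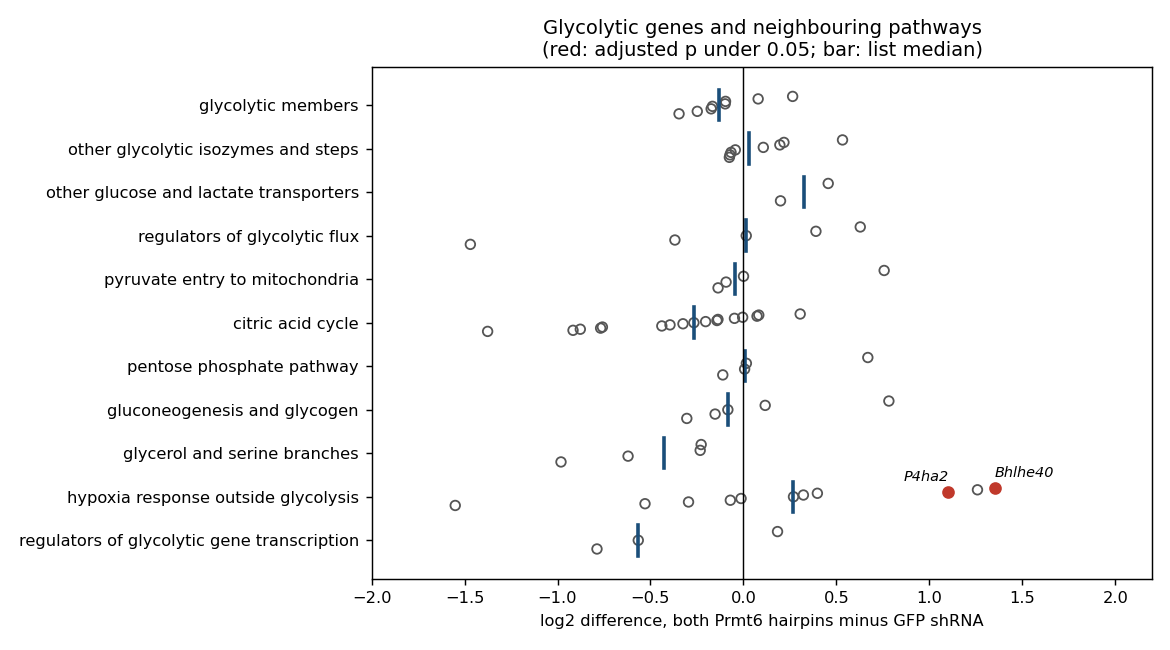
Log2 differences (x axis) of every tested gene in the glycolytic set and 10 neighbouring lists (y axis), both Prmt6 hairpins minus GFP shRNA. Open circles did not pass, red circles are P4ha2 and Bhlhe40, and blue bars are list medians, -0.13 for the glycolytic set. Of the list genes, 11 were detected on every array except Prmt6 shRNA2 replicate 2, among them Hif3a and Arnt. These are in the list of 3 regulators of glycolytic gene transcription, whose median of -0.57 was 0.13 with Prmt6 shRNA1 alone.

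The genes whose profile over the 6 arrays lay nearest to 3 of the set were found by the root mean square difference of values centred on each gene's mean, over 6538 genes. Nearest to Slc2a1 were Cep57l1, Zmym5 and Peli1, at 0.057, 0.064 and 0.066 log2 units, where the median gene lay at 0.36. For Hk2 they were Klhdc4, Fancl and Lias, at 0.024, 0.030 and 0.031 (median 0.26). For Ldha they were Rnf34, Rnaseh2a and Rbpms2, at 0.059, 0.065 and 0.067 (median 0.36). None of these 9 genes belongs to the glycolytic set. Genes picked as nearest lie below the median distance by the way they are picked, so the ranking is a description and not a test.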

How the data were processed

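Transcript levels were measured on 6 Illumina mouse bead arrays. The deposited table without normalization gave a mean bead intensity per probe, per the file headers, already net of background since some values are negative, and a detection score; it climbs with brightness on each array, so 1 minus the score was taken as detection p. The authors' processed log2 values, an alternative here, come from lumi according to the submitters' processing notes, with settings not given in the sources used here. The array build is not given either. Intensities were normalized with neqc in limma 3.58.1 (R 4.3.3, offset 16). Probes with detection p under 0.01 on at least 2 arrays were kept (9138), and the brightest kept probe stood for each of 6539 genes. Names were matched to RefSeq symbols and to synonyms held by 1 gene. limma (lmFit, eBayes) then estimated the 3 group means from the 6 arrays together, with 2.81 prior and 3 residual degrees of freedom; the code was tested on simulated data. An exact permutation test with the smaller tail doubled could not go below p = 0.133 for 4 arrays against 2, or 0.333 for 2 against 2. The genes, lists and tests were chosen with earlier results of these data known. Genes named were the 10 of the set, Prmt6, called genes of the lists, the brightest isozyme for a step with none of the set tested, Gapdh, Eno1, the markers and the nearest profiles; other list genes were chosen after their values were seen.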

Additional observations from a re-analysis of the deposited data

How the results depend on the processing

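The count of glycolytic genes passing stayed at 0 in all 4 comparisons under 20 alternatives (19 for both hairpins together), by gene and by every kept probe, and the lowest adjusted p of any gene was 0.137, for Ldha with Prmt6 shRNA2 and detection on all 6 arrays. Signs held in 149 of 152 values over both hairpins and in 150, 154 and 150 of 160 in the other comparisons. Scaling to medians in place of quantiles moved the median of all genes to 0.14 with Prmt6 shRNA1, -0.16 with Prmt6 shRNA2 and -0.33 between the hairpins, as quantile normalization gave -0.02, 0.08 and 0.06. The medians of the 8 glycolytic genes became 0.12, -0.38 and -0.47, against -0.07, -0.18 and -0.09. It turned Gpi1, Tpi1 and Pkm upward with Prmt6 shRNA1, Slc2a1 and Hk2 downward with Prmt6 shRNA2, and Slc2a1, Hk2 and Pfkl downward between the hairpins, and it gave 3 genes higher and 46 lower with Prmt6 shRNA2, against 61 and 7. The 2 calls in the neighbouring lists became 0 with median scaling, no further background correction, no filter, detection p under 0.05, every kept probe, the replicate block, and the first probe series with Prmt6 shRNA2 replicate 2 left out, and 4 with detection on all arrays. Leaving out single arrays gave 0 to 12, the 12 without Prmt6 shRNA2 replicate 1, which leaves the dim array alone in its group. The targeted gene Prmt6 passed at -1.49 with an offset of 50 and at -2.08 without Prmt6 shRNA2 replicate 1, with -2.08 to -1.65 over single arrays left out, and stood at -1.12 with the authors' processed values. Counts over all genes ran from 0 to 453 for both hairpins (109 as reported), 0 to 236 for Prmt6 shRNA1 (86), 0 to 493 for Prmt6 shRNA2 (68) and 0 to 377 between the hairpins (26). The cause was not tested. The difference of replicate 1 minus replicate 2 within a group was correlated across genes between groups. It gave -0.36 between the Prmt6 groups. Against GFP shRNA it gave -0.65 for Prmt6 shRNA1 and 0.12 for Prmt6 shRNA2. These values do not show what replicate numbers share, nor whether arrays with different numbers shared a condition. The replicate block left 0 glycolytic calls and 0 calls over all genes for both hairpins. The signal over background limits Pgk1 and the dim probes of Gpi1 and Tpi1.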
